A study of Mus musculus with 12 samples.

Results

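Insulin-like growth factor 1 (Igf1), its receptor (Igf1r), the receptor's adaptor Irs1, the acid-labile subunit Igfals and 6 binding proteins (Igfbp2 to Igfbp7) were followed across mouse hearts given angiotensin II or a sham operation, with or without gastrodin. The members were taken by symbol from the matrix of raw gene counts, which matched all 10 of them among 27504 genes. All 10 passed the filter on low counts that kept 16723 genes for testing. The hearts came from wild-type C57BL/6 mice at postnatal day 45, in the angiotensin II model of cardiac hypertrophy (AngII) or after a sham operation. Each arm was given vehicle, 5 or 50 mg/kg/day of gastrodin, a plant glucoside from the tuber of an orchid, into the stomach for 7 days. The groups were therefore AngII with vehicle (libraries 1 and 2), AngII with 5 mg (3 and 4), AngII with 50 mg (5 and 6), sham with vehicle (7 and 8), sham with 5 mg (9 and 10) and sham with 50 mg (11 and 12). The numbers are those of the sample titles, and no label says whether a library is 1 heart or a pool. The title of the series names insulin-like growth factor 2 and its receptor as the target of gastrodin, so the present genes are the other branch of the same family.

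IGF1 is a small secreted hormone made by the liver under growth hormone and also locally by fibroblasts and macrophages. It binds the tyrosine kinase IGF1R, which recruits insulin receptor substrates and activates PI3 kinase, AKT and mTOR, the route of physiological heart growth. In blood and tissue most IGF is held by binding proteins, which lengthen its life, block its access to the receptor or release it on cleavage by proteases. IGFBP3 and IGFBP5 form a ternary complex with IGF and the liver-made acid-labile subunit. IGFBP7 binds IGF weakly and is mostly known as a matrix protein of vessels.

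The libraries held 63.5 to 78.6 M counts, mostly mitochondrial. Counts outside the mitochondrial genome, its nuclear copies and ribosomal RNA loci made up 6.34% to 20.3% of a library. That share was 14.0%, 20.3% and 18.7% in libraries 1, 3 and 6, all AngII, and at most 10.4% in the other 9. The summed level of 10 cardiomyocyte markers was 5322 to 9867 CPM (counts scaled to a common library total) in AngII and 3690 to 6949 CPM in sham. Of 4 hypertrophy markers, 3 (Nppa, Nppb and Acta1) were lower in AngII than in sham and 1 (Myh7) was higher. For the 3 this is opposite to the known direction. Whether the arm labels are right was not tested. Each arm is used here as labelled, and every direction given for AngII rests on those labels. Nothing states that the libraries of a group came from separate animals, so p-values measure the spread between these libraries. In whole tissue, fewer cells of a type and less RNA per cell cannot be told apart.

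Levels are given as CPM scaled by the trimmed mean of M-values (TMM). For the order of the members per length, the authors' deposited TPM values, which take transcript length into account, were averaged over 12 libraries. Igfbp7 was the most abundant at 34.1 ± 14.9 TPM (SD, n = 12), followed by Igfbp4 at 6.61 ± 3.94 TPM. Igfbp6 (2.57 ± 1.83 TPM), Igf1 (2.41 ± 1.33 TPM) and Igfbp3 (1.5 ± 1.22 TPM) came next, and Igfbp5 stood at 0.924 ± 0.593 TPM. Igfals, Igfbp2, Igf1r and Irs1 were lowest, with means of 0.579, 0.273, 0.250 and 0.139 TPM. Igfbp6 was above Igf1 in 4 of 12 libraries, Igfbp5 above Igfals in 7, Igfals above Igfbp2 in 8 and Igfbp2 above Igf1r in 7, so these neighbours did not keep their order from library to library. Each other neighbour in the order was above the next in at least 10 of 12 libraries.

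**Figure D1:**
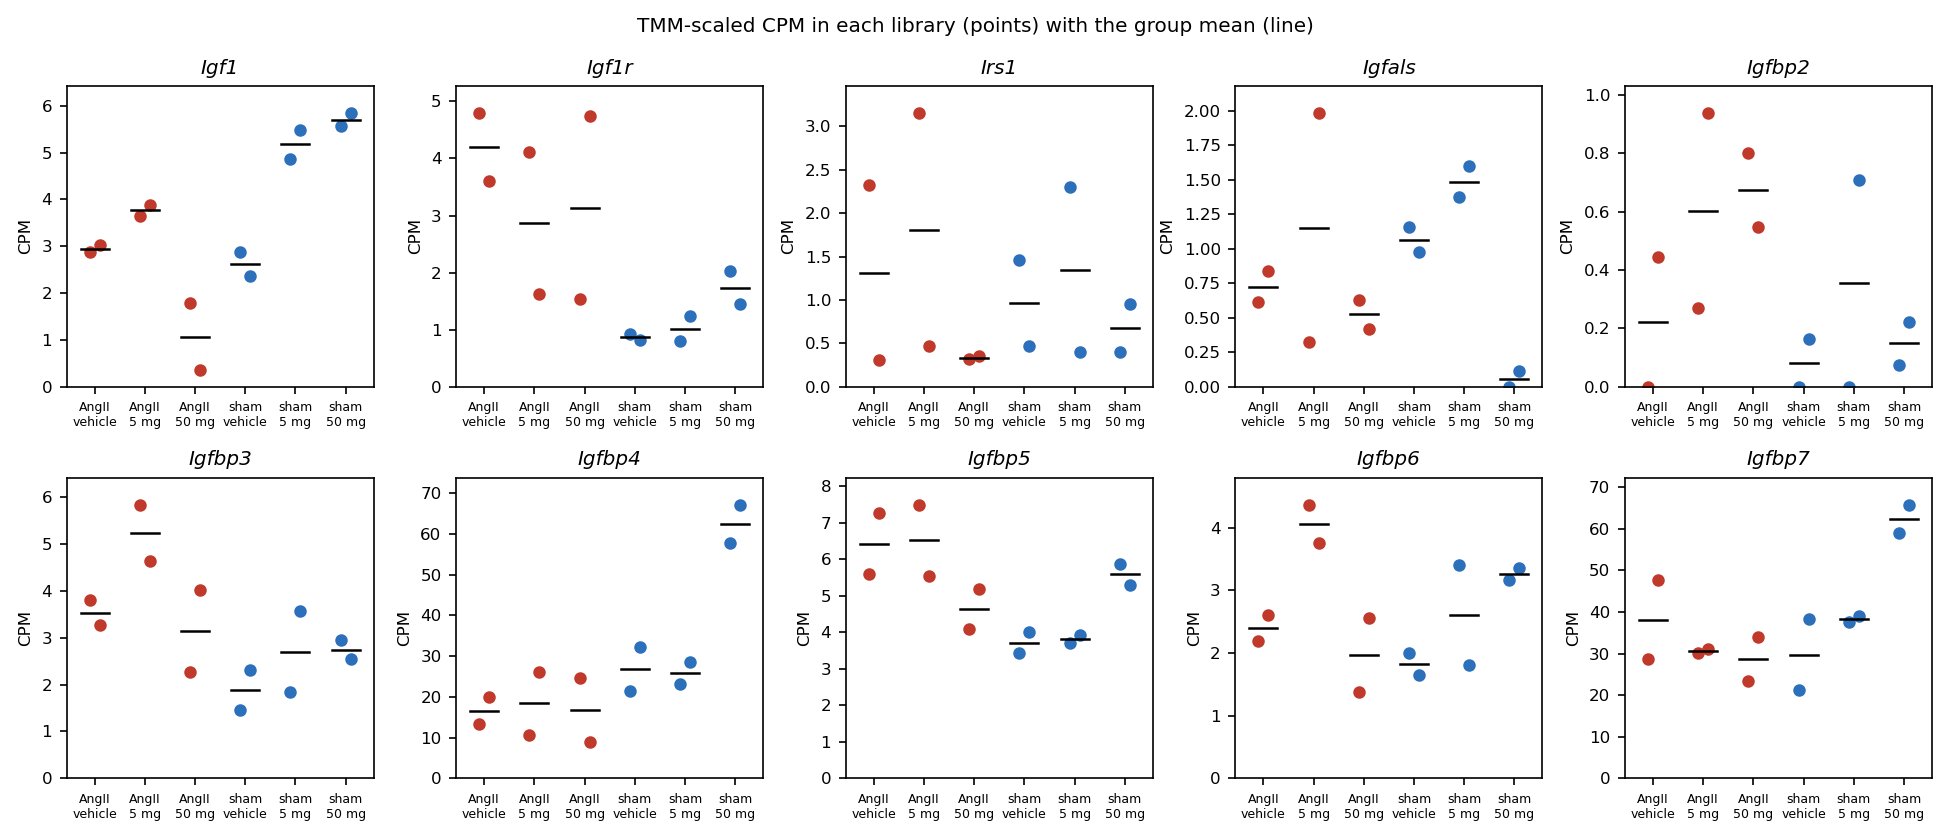
TMM-scaled CPM (vertical axis, from 0, own scale for each gene) of the 10 members in each library, by group along the horizontal axis. Points are libraries (red AngII, blue sham) and lines are group means of 2; Igf1r lies high in AngII, Igfbp4 and Igfbp7 are highest in sham with 50 mg, and Irs1 splits within groups.

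Promoter sequences are shown for the receptor, which was higher in AngII, and for Igfbp4, which was lower, and beside each for a binding protein that lay on the same side at some dose, Igfbp3 and Igfbp7. They are the 250 bases before the RefSeq start on GRCm38.p6, on the gene's strand, where no annotated exon lies. The Igf1r window is chr7:67952007-67952256 (plus strand), that of Igfbp3 chr11:7213924-7214173 (minus), that of Igfbp4 chr11:99040994-99041243 (plus) and that of Igfbp7 chr5:77408046-77408295 (minus). Capitals mark the GC box GGGCGG on either strand (CCGCCC when reversed) and the TATA box TATAAA on either strand.
Igf1r: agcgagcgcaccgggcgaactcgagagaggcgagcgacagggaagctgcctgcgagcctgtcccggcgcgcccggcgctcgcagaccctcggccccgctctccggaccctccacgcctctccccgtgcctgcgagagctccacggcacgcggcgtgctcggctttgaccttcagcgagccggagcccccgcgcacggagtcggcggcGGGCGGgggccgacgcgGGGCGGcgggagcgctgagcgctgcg
Igfbp3: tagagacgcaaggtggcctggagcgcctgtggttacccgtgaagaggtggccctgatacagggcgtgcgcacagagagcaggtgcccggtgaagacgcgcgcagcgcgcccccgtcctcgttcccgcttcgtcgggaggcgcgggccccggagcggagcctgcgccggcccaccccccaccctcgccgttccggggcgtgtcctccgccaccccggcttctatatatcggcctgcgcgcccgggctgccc
Igfbp4: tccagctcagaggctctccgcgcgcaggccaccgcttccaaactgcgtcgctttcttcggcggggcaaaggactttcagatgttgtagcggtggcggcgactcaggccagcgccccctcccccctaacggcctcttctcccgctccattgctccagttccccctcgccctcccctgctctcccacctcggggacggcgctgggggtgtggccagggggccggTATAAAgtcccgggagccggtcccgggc
Igfbp7: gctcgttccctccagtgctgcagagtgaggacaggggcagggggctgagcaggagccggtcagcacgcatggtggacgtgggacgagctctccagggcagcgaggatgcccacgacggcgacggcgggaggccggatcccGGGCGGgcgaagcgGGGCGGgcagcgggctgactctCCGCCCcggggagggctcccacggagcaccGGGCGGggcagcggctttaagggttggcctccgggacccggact
The Igf1r window held 2 GC boxes and that of Igfbp7 4, while the Igfbp4 window held 1 TATA box and the Igfbp3 window neither motif. Of 32851 RefSeq promoters of this length, 32.7% had the GC box and 12.4% had TATAAA. The windows were 77.6% (Igf1r), 73.2% (Igfbp3), 69.2% (Igfbp4) and 74.0% (Igfbp7) G and C, against a median of 52.4% over all promoters. All 10 members matched a RefSeq promoter, with 13 promoter entries in all. Of the 13 entries 6 had a GC box and 2 (of Igfbp4 and Igfbp6) had TATAAA. The 6 entries belong to 5 members. The window of Igf1 lies within an annotated exon and is not shown.

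Averaged over the 3 doses, the receptor rose in AngII while the ligand and Igfbp4 fell. Of the 10 members 1 rose and 2 fell at an adjusted p under 0.05 (edgeR's quasi-likelihood test, Benjamini-Hochberg), against 20.9% of all genes tested, 13.4% higher and 7.53% lower. The median log2 difference of the members was 0.27, and 0.10 over all genes. An unadjusted p under 0.05 was reached by 5 members, against 36.7% of all genes. No member's 6 AngII libraries were wholly apart from its 6 sham libraries, which was the case for 4.44% of genes on the higher side and 2.92% on the lower.

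Igf1 (ENSMUSG00000020053, chr10:87858265-87937042, plus strand, GRCm38) encodes the ligand. In AngII it stood at 2.87 and 3.02 CPM with vehicle, at 3.64 and 3.89 CPM with 5 mg, and at 1.79 and 0.350 CPM with 50 mg. In sham it stood at 2.87 and 2.36 CPM with vehicle, at 4.87 and 5.48 CPM with 5 mg, and at 5.57 and 5.84 CPM with 50 mg. In CPM the arms overlapped with vehicle and lay apart at both doses. Library 6 was the lowest of all 12 and the sham 50 mg pair the highest. Of that pair, library 12 (5.84 CPM) held 10.8% ribosomal RNA counts and library 11 (5.57 CPM) 0.0875%. On the authors' TPM library 3 was highest (5.20 TPM), above libraries 12 (4.20 TPM) and 11 (2.74 TPM). There the arms overlapped at 5 mg (5.20 and 2.03 TPM in AngII, 2.11 and 3.25 TPM in sham). With vehicle both AngII libraries were the higher on TPM (2.75 and 2.09 against 1.38 and 1.65 TPM in sham). At 50 mg both were the lower (1.16 and 0.415 against 2.74 and 4.20 TPM). The ligand fell in AngII by 0.91 ± 0.30 on the log2 scale averaged over doses (SE, edgeR adjusted p = 0.0486), a call that ended when any of 10 of the 12 libraries was left out. The difference sat at 50 mg, where Igf1 averaged 1.07 ± 1.02 CPM in AngII and 5.71 ± 0.188 CPM in sham (SD, n = 2 each). With vehicle the log2 difference was 0.17 ± 0.52 (SE; 95% interval -0.95 to 1.29), and with the vehicle and 5 mg groups alone it was -0.14 (edgeR adjusted p = 0.837).

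Igf1r (ENSMUSG00000005533, chr7:67952827-68233668, plus strand), the receptor tyrosine kinase, moved the other way. In AngII it was 4.79 and 3.61 CPM with vehicle, 4.11 and 1.62 CPM with 5 mg, and 1.53 and 4.75 CPM with 50 mg. In sham it was 0.926 and 0.825 CPM with vehicle, 0.797 and 1.23 CPM with 5 mg, and 2.02 and 1.45 CPM with 50 mg. Only library 11 of the sham arm reached the AngII range, where libraries 4 and 5 were lowest. The arm means were 3.40 ± 1.48 CPM in AngII and 1.21 ± 0.473 CPM in sham (SD, n = 6 each). The receptor rose by 1.54 ± 0.32 on the log2 scale (SE, edgeR adjusted p = 0.00749; 95% interval 0.84 to 2.24), and passed with each of the 12 libraries left out in turn. Its level was above 4 CPM in libraries 1, 3 and 6, the 3 with the highest share of counts outside the mitochondrial and ribosomal classes. With that share as a covariate the difference was 0.81 (edgeR adjusted p = 0.186), and without libraries 3 and 6 it was 0.92 (edgeR adjusted p = 0.0591). On the authors' TPM (log2 of TPM + 1) it was 0.36 (limma adjusted p = 0.0658). The TPM means were 0.415 ± 0.276 in AngII and 0.0841 ± 0.0350 in sham (SD, n = 6 each). Both are under the added 1, which compresses differences at such levels. The receptor passed in 22 of 25 alternative settings, log2(TPM + 0.1) among them.

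Of the other receptors of the family, Igf2r moved the same way as Igf1r and Insr the other way. Igf2r, the clearance receptor for IGF2, rose by 1.02 ± 0.24 (SE, edgeR adjusted p = 0.011), from a sham mean of 4.25 ± 1.17 CPM to 8.62 ± 2.40 CPM in AngII (SD, n = 6 each). The Igf2r call held with each of the 12 libraries left out in turn and in 22 of 25 alternative settings. Over these its log2 difference was 0.597 to 1.39. Insr, the insulin receptor and closest relative of Igf1r, fell by 1.39 ± 0.46 (SE, edgeR adjusted p = 0.0486), from 3.50 ± 2.48 to 1.32 ± 0.265 CPM. Insr was 6.87, 4.98 and 5.15 CPM in sham libraries 7, 9 and 12, and 0.956 to 1.53 CPM in the other 3 sham libraries, which lie within or near the AngII range of 0.972 to 1.62 CPM. The high values are those of 1 library in each sham group, and the call ended when any of 9 of the 12 libraries was left out. Igf2, the sister ligand, ranged from 0.0318 to 8.15 CPM in AngII and from 0.347 to 12.03 CPM in sham. Its log2 difference at 50 mg was -5.31 (edgeR adjusted p = 0.00662), with the lowest and the highest library of the series in the same groups as for Igf1.

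Irs1 (ENSMUSG00000055980, chr1:82233101-82291416, minus strand) encodes the adaptor that carries the signal from the receptor to PI3 kinase. It was 2.32 and 0.304 CPM in AngII with vehicle, 3.15 and 0.468 CPM with 5 mg, and 0.315 and 0.357 CPM with 50 mg. In sham it was 1.47 and 0.475 CPM with vehicle, 2.30 and 0.399 CPM with 5 mg, and 0.405 and 0.950 CPM with 50 mg. Libraries of the same group differed by up to 7.65-fold, and the arms did not differ beyond that spread (log2 difference -0.04 ± 0.60, SE, edgeR adjusted p = 0.991; 95% interval -1.33 to 1.25). The predicted coding gene Gm9747 lies on the opposite strand at chr1:82233112-82235933. All 2822 of its exon bases are exon bases of Irs1, in the untranslated part of that transcript, and they make up 30.9% of the exon bases of Irs1.

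The counts of the pair went against each other. Libraries 1, 3 and 9, where Irs1 was highest, had 0 counts for Gm9747, and the other 9 libraries had 74 to 228. The sources used here do not give the strand setting of the counting, so reads of the 2 genes cannot be told apart and the level of Irs1 is uncertain. Summed, the pair gave 1.40 to 3.57 CPM over the 12 libraries, a narrower range than the 0.304 to 3.15 CPM of Irs1 alone. The summed level was 2.29 ± 0.519 CPM in AngII and 2.34 ± 0.727 CPM in sham (SD, n = 6 each), and its log2 difference was -0.04 (edgeR adjusted p = 0.938). The sum was added after the values were seen.

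**Figure D2:**
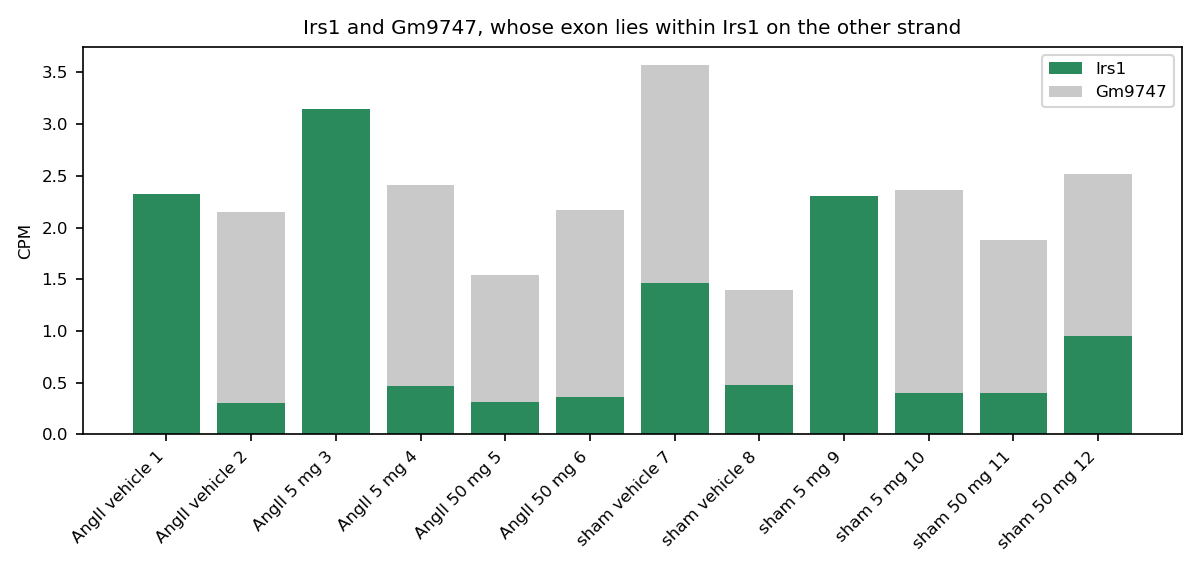
CPM of Irs1 (green) and of Gm9747 (grey), stacked, for each library along the horizontal axis, named by group and library number. Gm9747 is at 0 in libraries 1, 3 and 9, where Irs1 is highest; the stacked height runs from 1.40 to 3.57 CPM.

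Among the binding proteins only Igfbp4 (ENSMUSG00000017493, chr11:99041244-99054392, plus strand), an inhibitory binding protein that the protease PAPP-A cleaves, passed the test over the 3 doses. It was 13.3 and 19.9 CPM in AngII with vehicle, 10.7 and 26.0 CPM with 5 mg, and 24.6 and 9.02 CPM with 50 mg. The sham libraries were at 21.5 and 32.2 CPM with vehicle, 23.2 and 28.5 CPM with 5 mg, and 57.7 and 67.1 CPM with 50 mg. The sham 50 mg pair stood far above the other 10 libraries, of which the highest was 32.2 CPM, and the arms overlapped at 5 mg. Library 12 of that pair held 10.8% ribosomal RNA counts, against under 1% in the other 11 libraries, and its partner, library 11, had 57.7 CPM of Igfbp4 with 0.0875% ribosomal RNA. Igfbp4 fell in AngII by 1.03 ± 0.28 on the log2 scale (SE, edgeR adjusted p = 0.0227), and by 0.59 (edgeR adjusted p = 0.285) with the vehicle and 5 mg groups alone. The call ended without library 1, 6, 8 or 12 (edgeR adjusted p of 0.0503 to 0.0636).

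Igfbp7 (ENSMUSG00000036256, chr5:77349240-77408041, minus strand) was 28.7 and 47.7 CPM in AngII with vehicle, 30.3 and 31 CPM with 5 mg, and 23.5 and 34.0 CPM with 50 mg. In sham it was 21.2 and 38.2 CPM with vehicle, 37.5 and 39.0 CPM with 5 mg, and 58.9 and 65.8 CPM with 50 mg. As with Igfbp4, the sham 50 mg pair was above every other library in CPM, library 11 (58.9 CPM) as well as the ribosomal-rich library 12. On the authors' TPM this did not hold for Igfbp7. Library 12 was highest there at 59.0 TPM, but library 11 (36.1 TPM) lay below libraries 2, 3 and 6 (41.1, 53.8 and 50.3 TPM). The log2 difference over doses was -0.36 ± 0.20 (SE, edgeR adjusted p = 0.209). It had the opposite sign in 3 of 25 alternative settings, up to 0.243. On the authors' TPM the AngII mean was the higher, at 36.4 ± 14.8 TPM against 31.7 ± 15.9 TPM in sham (SD, n = 6 each). Igfbp7 shares 85 exon bases with Polr2b on the opposite strand, so a small part of its counts is uncertain.

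Igfbp3 (ENSMUSG00000020427, chr11:7206086-7213923, minus strand), the main carrier of IGF in blood, stood on the side of the receptor. It was 3.8 and 3.26 CPM in AngII with vehicle, 5.83 and 4.64 CPM with 5 mg, and 2.28 and 4.01 CPM with 50 mg. The sham libraries had 1.47 and 2.31 CPM with vehicle, 1.84 and 3.56 CPM with 5 mg, and 2.94 and 2.54 CPM with 50 mg. The arms lay apart with vehicle and at 5 mg and overlapped at 50 mg. The log2 difference over doses was 0.68 ± 0.24 (SE; 95% interval 0.17 to 1.2), just past the threshold on the side of no call (edgeR adjusted p = 0.0566).

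Igfbp5 (ENSMUSG00000026185, chr1:72857932-72874884, minus strand), a matrix-bound binding protein and the chromosomal neighbour of Igfbp2, had a similar pattern with a smaller difference. It was 5.6 and 7.26 CPM in AngII with vehicle, 7.49 and 5.54 CPM with 5 mg, and 4.09 and 5.19 CPM with 50 mg. Sham hearts had 3.43 and 4.0 CPM with vehicle, 3.72 and 3.92 CPM with 5 mg, and 5.89 and 5.29 CPM with 50 mg. The AngII libraries were the higher with vehicle and 5 mg and the lower with 50 mg. The log2 difference over doses was 0.43 ± 0.17 (SE, edgeR adjusted p = 0.0908).

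Igfbp6 (ENSMUSG00000023046, chr15:102144362-102149511, plus strand), which prefers IGF2 over IGF1, did not separate the arms. It ranged from 1.37 to 4.37 CPM in AngII (median 2.59) and from 1.65 to 3.41 CPM in sham (median 2.58), with a log2 difference of 0.10 ± 0.23 (SE, edgeR adjusted p = 0.785; 95% interval -0.40 to 0.61).

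The 2 members best known as liver products were at the limit of detection in some libraries. Igfbp2 (ENSMUSG00000039323, chr1:72824503-72852474, plus strand) had no count in libraries 1, 7 and 9, where a count of 0 allows up to 0.0293, 0.0579 and 0.0664 CPM (3 counts, counting error only). It was 0.443 CPM in library 2, 0.269 and 0.936 CPM in AngII with 5 mg, and 0.802 and 0.548 CPM in AngII with 50 mg. In sham it was 0.162 CPM in library 8, 0.708 CPM in library 10, and 0.0736 and 0.223 CPM with 50 mg. The log2 difference over doses was 1.41 ± 1.07 (SE, edgeR adjusted p = 0.359), and its interval of -0.91 to 3.73 left either direction possible.

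Igfbp2 had no count only in libraries where a hepatocyte transcript was low, though the levels did not follow each other in every library. Alb, serum albumin, was 0.10 to 0.926 CPM in libraries 1, 7, 8 and 9, the 3 libraries with no Igfbp2 and 1 with 0.162 CPM, and 10.02 to 42.4 CPM in the other 8. Library 11 went against this order, with 15.2 CPM of Alb and 0.0736 CPM of Igfbp2 (4 counts), less Igfbp2 than library 8 at 0.10 CPM of Alb. The sum of 12 hepatocyte markers ran from 3.67 to 92.9 CPM in AngII and from 3.38 to 67.0 CPM in sham. Low and high sums were thus found in each arm. Of the 12 markers 1 rose in AngII over the 3 doses, against 13.4% of all genes. The part of these transcripts in the level of Igfbp2 was not tested. Of the other tissues, the sum of 4 lung markers was 1.2 to 8.81 CPM in AngII, highest in libraries 1 and 2 (8.81 and 7.07 CPM), and 0 to 1.89 CPM in sham. Of these 4 only 1 passed the filter on low counts, and it rose in AngII, as did 13.4% of all genes. The defining marker Sftpc was at 0 in all libraries except library 6 (0.0318 CPM). The sum of 6 fat markers was 0.0900 to 0.461 CPM in AngII and 0 to 0.327 CPM in sham, with Adipoq at 0 in all 12 libraries. The part of either tissue in the members' levels was not tested.

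**Figure D3:**
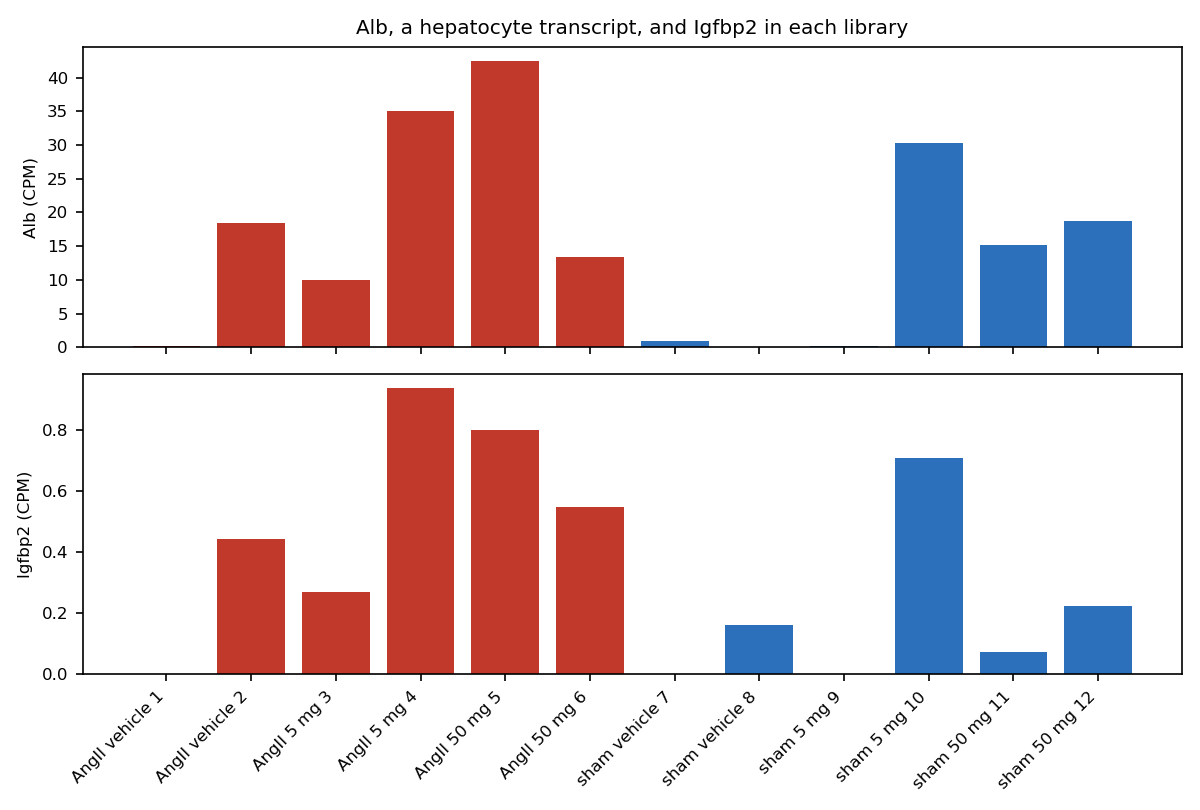
CPM of Alb (upper panel) and Igfbp2 (lower panel) in each library along the horizontal axis (red AngII, blue sham). Libraries 1, 7, 8 and 9 are at or under 0.926 CPM of Alb, and Igfbp2 is at 0 in 3 of them and at 0.162 CPM in library 8; library 11 has Alb but only 0.0736 CPM of Igfbp2.

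Igfals (ENSMUSG00000046070, chr17:24865997-24882010, plus strand), the acid-labile subunit, did not follow Alb. It was 0.615 and 0.835 CPM in AngII with vehicle, 0.323 and 1.98 CPM with 5 mg, and 0.630 and 0.421 CPM with 50 mg. Sham libraries were at 1.16 and 0.975 CPM with vehicle, 1.37 and 1.60 CPM with 5 mg, and 0 and 0.112 CPM with 50 mg. The sham 50 mg pair was lower than all other libraries, with 0 counts in library 11 (a limit of 0.0552 CPM) and 8 counts in library 12. Libraries 11 and 12 had 15.2 and 18.8 CPM of Alb. The log2 difference over doses was 0.72 ± 0.53 (SE, edgeR adjusted p = 0.347). Its sign came from the 50 mg groups (3.10), while the difference was -0.56 with vehicle and -0.39 at 5 mg. The arm means were 0.801 ± 0.605 CPM in AngII and 0.869 ± 0.665 CPM in sham (SD, n = 6 each).

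The same contrast was then taken at each dose. With vehicle no member passed the edgeR test, against 0.0598% of all genes. Igf1r was 2.26 ± 0.57 higher in AngII on the log2 scale (SE; 95% interval 1.02 to 3.51; edgeR adjusted p = 0.13), Igfbp3 0.90 ± 0.41 and Igfbp5 0.79 ± 0.30. Both AngII libraries were above both sham libraries for Igf1r, Igfbp3, Igfbp5 and Igfbp6, and below them for Igfals and Igfbp4, where 29.3% and 24.3% of all genes were so placed. At an unadjusted p under 0.05 there were 3 members, against 16.5% of all genes. DESeq2 called Igf1r (adjusted p = 0.013) and limma-voom no member.

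At 5 mg no member passed, against 0% of all genes. Igf1r (1.5 ± 0.56), Igfbp3 (0.96 ± 0.41) and Igfbp5 (0.77 ± 0.30) again had the 3 unadjusted p under 0.05 (12% of all genes) in edgeR, and each was higher in both AngII libraries. Such placement was found on the higher side for 4 members, with Igfbp6 the other, and for 21.8% of all genes. Igf1 and Igfbp7 were lower in both AngII libraries, as were 16.8% of all genes. DESeq2 and limma-voom called no member either.

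At 50 mg Igf1 and Igfbp4 fell, and 2 of 10 members compares with 5.42% of all genes called in either direction and 1.38% on the lower side. Igf1 fell by 2.44 ± 0.55 on the log2 scale (SE, edgeR adjusted p = 0.0261), and by 1.63 (edgeR adjusted p = 0.0877) without library 6 and 4.01 (edgeR adjusted p = 0.00212) without library 5. Its call also ended without library 11 or 12 (edgeR adjusted p = 0.0768 and 0.123). Igfbp4 fell by 1.89 ± 0.50 (SE, edgeR adjusted p = 0.0447), a call that ended when any of 7 of the 12 libraries was left out, with -1.30 (edgeR adjusted p = 0.267) without library 6. Igfbp7 had a log2 difference of -1.12 ± 0.35 (edgeR adjusted p = 0.0783), and Igfals one of 3.10 ± 1.05 (edgeR adjusted p = 0.0983), which depends on 8 counts in 2 sham libraries. Igf1r, at 0.86 ± 0.55 (edgeR adjusted p = 0.356), overlapped between the arms here. At an unadjusted p under 0.05 there were 4 members in edgeR, against 24% of all genes. Both AngII libraries were above both sham libraries for 2 members (Igfals and Igfbp2) and below them for 6, against 30.6% and 28.4% of all genes.

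**Figure D4:**
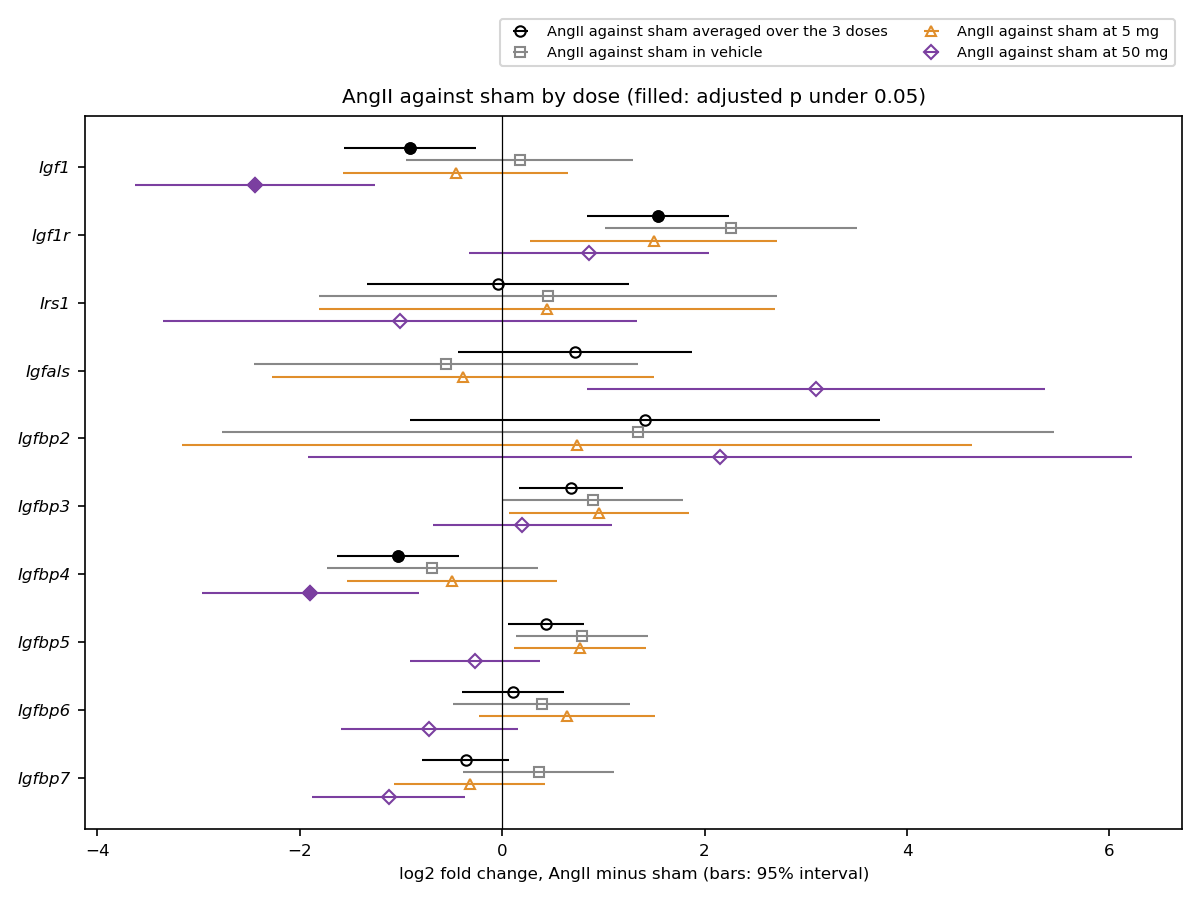
Log2 fold change, AngII minus sham (horizontal axis), with the 95% interval from edgeR, for each member (vertical axis) over the 3 doses, with vehicle, at 5 mg and at 50 mg. Filled symbols have an adjusted p under 0.05: Igf1, Igf1r and Igfbp4 over the doses, and Igf1 and Igfbp4 at 50 mg.

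Gastrodin against vehicle gave no called member in any of 4 comparisons, which share their vehicle libraries with the vehicle contrast and with each other within an arm. Of all genes 0.00598% and 0.012% were called at 5 and 50 mg in AngII, and 0.0179% and 0.149% in sham. At an unadjusted p under 0.05 there were 0 and 1 members in AngII and 0 and 3 in sham (edgeR), against 1.74%, 1.88%, 4.12% and 9.22% of all genes. In AngII at 50 mg the member was Igf1, at -1.49 ± 0.53 on the log2 scale (SE, edgeR adjusted p = 1; 95% interval -2.64 to -0.33). In sham at 50 mg the 3 were Igfals at -4.12 ± 1.07 (edgeR adjusted p = 0.24), Igfbp7 at 1.07 ± 0.35 (edgeR adjusted p = 0.36) and Igfbp4 at 1.22 ± 0.49 (edgeR adjusted p = 0.45). Igf1 stood at 1.13 ± 0.52 there (edgeR adjusted p = 0.542), with both dosed libraries above both vehicle libraries. Of the 10 members, 7 had both sham 50 mg libraries above both sham vehicle libraries, against 21.9% of all genes. DESeq2 called Igfals in sham at 50 mg (adjusted p = 0.00718) and no other member in the 4 comparisons, and limma-voom called none.

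The difference of the gastrodin response between the arms was tested by an interaction term. No member passed at 5 or at 50 mg, against 0.00598% and 0.0299% of all genes. At 50 mg it was -2.61 ± 0.75 for Igf1 (SE, edgeR adjusted p = 0.467; 95% interval -4.23 to -1.0), -1.48 ± 0.49 for Igfbp7 (edgeR adjusted p = 0.606), 3.65 ± 1.36 for Igfals (edgeR adjusted p = 0.639) and -1.06 ± 0.42 for Igfbp5 (edgeR adjusted p = 0.676). These 4 had an unadjusted p under 0.05, as did 6.93% of all genes, while none did at 5 mg, and DESeq2 and limma-voom called no member at either dose. For Igf2 the term was -8.55 (edgeR adjusted p = 0.0186).

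Markers of fibroblasts, which make Igf1 and Igfbp4, moved with these genes. The sum of 10 fibroblast markers was 207 to 332 CPM in AngII and 200 to 744 CPM in sham, where libraries 11 and 12 stood at 744 and 741 CPM and the other 4 at 200 to 394 CPM. Of the 10 markers, 7 fell in AngII over the 3 doses, against 7.53% of all genes. Macrophage markers had the same high pair, at 149 and 121 CPM, against 26.3 to 97.2 CPM in the other 10 libraries, and 3 of 10 fell, against the same 7.53%. In CPM, the 2 libraries with the most fibroblast and macrophage marker RNA were thus those with the most Igf1, Igfbp4 and Igfbp7. Igf1 was nearly as high in libraries 9 and 10, at 227 and 348 CPM of fibroblast markers. On the authors' TPM this pair was above all other libraries for Igfbp4 (10.3 and 17.5 TPM), but not for Igf1 or Igfbp7. Library 6, with the lowest Igf1 and the lowest Igfbp4, had 293 CPM, inside the range of its arm. The part of these cells in the differences was not tested.

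On the side of Igf1r, 6 of 10 smooth muscle and pericyte markers and 5 of 10 endothelial markers rose in AngII, against 13.4% of all genes. Their sums were 128 to 350 CPM and 203 to 372 CPM in AngII and 97.0 to 190 CPM and 230 to 276 CPM in sham. Libraries 4 and 5, the AngII libraries with the least Igf1r, also had the least of both sums in their arm. Other lists were higher in AngII too: 5 of 5 red cell markers rose over the doses (sums of 1028 to 3347 CPM in AngII and 289.6 to 1741 CPM in sham), as did 5 of 10 cardiomyocyte markers, while 1 of these 10 fell. The part of any of these cells in the level of Igf1r was not tested.

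**Figure D5:**
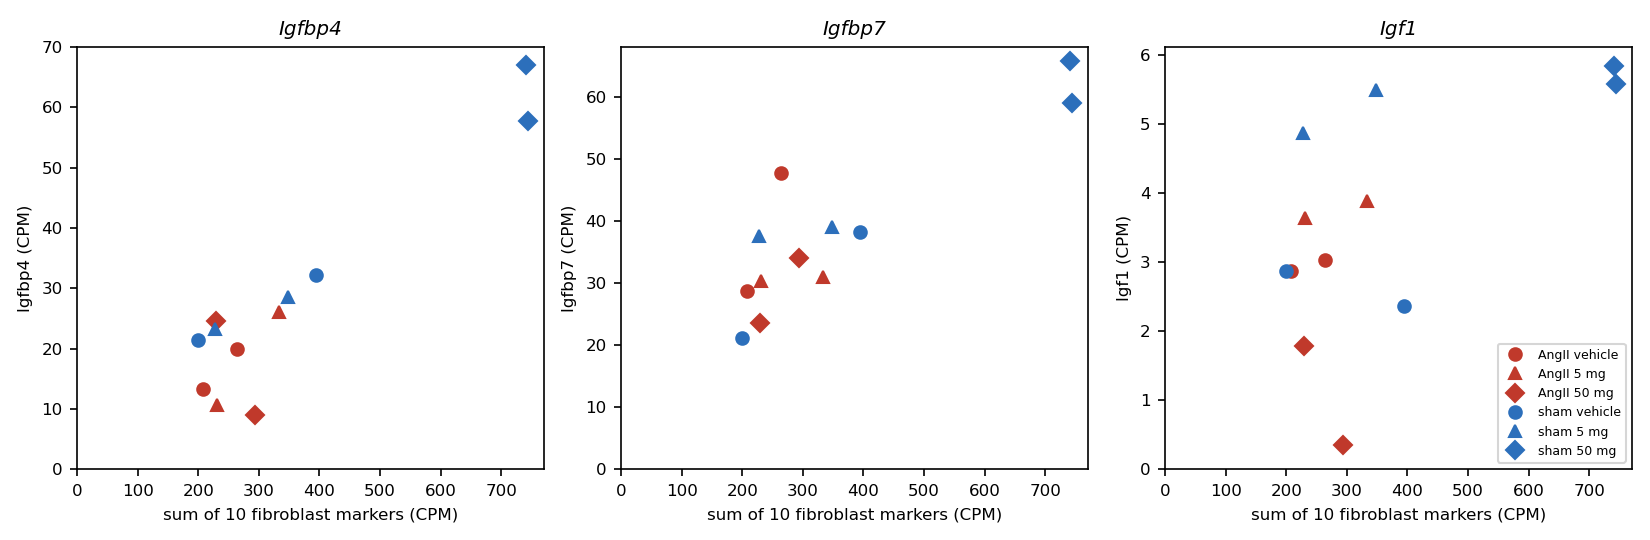
CPM of Igfbp4, Igfbp7 and Igf1 (vertical axes, from 0) against the summed CPM of 10 fibroblast markers (horizontal axis) in the 12 libraries (red AngII, blue sham; circles vehicle, triangles 5 mg, diamonds 50 mg). The sham 50 mg pair lies apart at 741 and 744 CPM with the highest Igfbp4, Igfbp7 and Igf1, while Igf1 also differs among libraries of 200 to 394 CPM.

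Genes around the members were read from 3 lists. Of 13 tested genes that set how much IGF is free (proteases, stanniocalcins and related genes), 2 rose and 1 fell in AngII over the doses, against the same 20.9% of all genes. The serine protease Htra3, which cleaves binding proteins, rose by 0.85 ± 0.23 on the log2 scale (SE, edgeR adjusted p = 0.0206), and Stc2, a stanniocalcin that inhibits PAPP-A, by 0.63 ± 0.18 (edgeR adjusted p = 0.0301). Mmp2, a matrix metalloprotease of fibroblasts, fell by 0.87 ± 0.27 (edgeR adjusted p = 0.0378). The median of the list was 0.24. Mmp2 was also the 1 gene of this list called at 50 mg, where it fell by 2.17 ± 0.48 (edgeR adjusted p = 0.0252).

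Of 8 genes of the growth hormone axis, 1 was called, against 20.9% of all genes. Cish, a feedback inhibitor induced by STAT5, rose by 1.14 ± 0.21 (SE, edgeR adjusted p = 0.00463), from 6.22 to 12.9 CPM on average, and by 2.12 ± 0.38 at 50 mg (edgeR adjusted p = 0.0115). The other 7 did not pass, and the median of the list was 0.21.

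Of 40 genes that carry the signal below the receptors, 5 rose, 6 fell and 29 did not pass over the doses. The 5 of 40 that rose compare with 13.4% of all genes and the 6 that fell with 7.53%, and the list as a whole lay near the 20.9% of genes called. Its median was -0.20, against 0.10 over all genes. The 4 with the smallest p were Tsc2, which restrains mTOR and rose by 1.30 ± 0.23 (SE, edgeR adjusted p = 0.00331), Pik3ca, the catalytic subunit of PI3 kinase, which fell by 1.49 ± 0.31 (edgeR adjusted p = 0.00723), Eif4ebp1, a translation repressor under mTOR, which fell by 0.83 ± 0.19 (edgeR adjusted p = 0.0102), and Sos1, the exchange factor for RAS, which rose by 1.2 ± 0.27 (edgeR adjusted p = 0.0106). For Pik3ca the highest AngII library lay below the lowest sham library (means of 1.61 and 4.75 CPM), and for Sos1 the order was the opposite (means of 2.06 and 0.901 CPM). At 50 mg 2 of the 40 rose and none fell in edgeR, near the 5.42% of all genes called. They were Tsc2, higher by 2.03 ± 0.40 (edgeR adjusted p = 0.0172), and Inppl1, a phosphoinositide phosphatase, by 1.77 ± 0.44 (edgeR adjusted p = 0.0377).

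The genes whose library-to-library pattern lay closest to that of the ligand and of the receptor were sought among 7179 genes. Their log2 CPM averaged at least 1, and predicted genes (Gm and Rik names) and genes without a symbol were left out. Closeness was the root mean square difference of centred log2 CPM over the 12 libraries. For Igf1 the closest were Cdc42se1 (0.41), Glipr2 (0.50), Nfya (0.50), Nudcd3 (0.50) and Ezh1 (0.52), against a spread of Igf1 itself of 1.08 (SD). For Igf1r they were Notch3 (0.28), Kmt2d (0.30), Herc1 (0.30), Fzd4 (0.30) and Sh3tc2 (0.30), against a spread of 0.96 (SD). Notch3 encodes a receptor of pericytes and arterial smooth muscle, and Fzd4 a Wnt and norrin receptor of endothelium. Kmt2d, Herc1 and Sh3tc2 lay as close as Fzd4, and only Notch3 is among the cell markers used here. The match of Igf1r was closer than that of Igf1, whose nearest gene still differed by more than 0.4 per library.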

How the data were processed

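The authors deposited raw counts per gene and, per the file headers, TPM values for 14271 of the genes. The tools HISAT2 2.2.1 and StringTie 2.1.3 and the build GRCm38.p6 are named in the submitters' processing notes; the sources used here do not give the counting program, annotation or strand setting. Per the labels' protocols, TruSeq RNA libraries were made from 1 µg of total RNA. With edgeR 4.0.16 in R 4.3.3, filterByExpr kept 16723 genes, TMM scaled the libraries, and the model gave each of the 6 groups its own mean in all 12 libraries together (6 residual degrees of freedom; biological coefficient of variation 0.476). The 10 contrasts were tested 2-sided with edgeR's quasi-likelihood F-test, adjusted over all genes (threshold 0.05). The fit was also run on counts simulated with known AngII folds. These lacked the differences in nuclear share between libraries, and no result here rests on that run. DESeq2 1.42.0, limma 3.58.1, other filters and scalings, TPM (pseudocounts 1 and 0.1) and left-out libraries were alternatives. Positions are from GENCODE M21.

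The members and lists were chosen with earlier results of these data known. Named genes are the members, Igf2, Igf2r, Insr and the 4 called genes of smallest p in each list. The 5 genes most like Igf1 and Igf1r are also named. Beside them stand Inppl1, Gm9747, Polr2b, Nppa, Nppb, Acta1, Myh7, Alb, Sftpc and Adipoq.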

Additional observations from a re-analysis of the deposited data

Results flagged for a closer look

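In 20 sets of 6 libraries (10 members in each arm), 2 had 1 library whose gap to its nearest neighbour exceeded the 95% critical ratio of 0.625 of the range; chance gives about 1 in 20. Igfals was 1.98 CPM in AngII library 4 (5 mg), while the next AngII library was at 0.835 CPM (ratio 0.691). Igfbp2 was 0.708 CPM in sham library 10 (5 mg), while the next sham library was at 0.223 CPM (ratio 0.684). Library 4 also had the second highest Alb of the series at 35.1 CPM, and library 10 the highest Alb of the sham arm at 30.3 CPM. Across the series Igfals did not follow Alb, and library 5, with the highest Alb at 42.4 CPM, had 0.630 CPM of Igfals. The part of liver transcripts in either flagged value was not tested.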

How the results depend on the processing

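Over the 3 doses 3 members were called; the number was 0 on log2(TPM + 1), with the share of nuclear counts as covariate and without libraries 3 and 6, 1 on log2(TPM + 0.1) and with vehicle and 5 mg groups only, and 1 to 5 with 1 library left out. Over all genes 3501 were called, and 1253, 336, 1309 and 778 on log2(TPM + 1), with the covariate, without libraries 3 and 6 and with vehicle and 5 mg only (1759 to 5143 with 1 library left out). With vehicle (0 called) it was 1 with DESeq2's Wald test, no filter, libraries 4 and 12 or 3 and 6 left out, and only the groups compared, and 0 to 1 with 1 library left out; at 5 mg (0) it was 0 to 1. At 50 mg (2) it was 4 with DESeq2's Wald test and with no filter, 1 with only the groups compared, without libraries 4 and 12 and without 3 and 6, 0 on both TPM scales and with the covariate, and 0 to 4 with 1 library left out. For gastrodin 50 mg in sham (0) it was 1 with DESeq2's Wald test, no filter and without libraries 4 and 12; in AngII it was 0 to 1 with 1 library left out. The interaction at 50 mg (0) gave 1 with no filter and 0 to 1 with 1 library left out. Igf2 over the doses turned from -0.47 to 1.95 (edgeR adjusted p = 0.0487) with vehicle and 5 mg only. The causes were not tested. Leaving out libraries 3 and 6, keeping only vehicle and 5 mg, and summing Irs1 with Gm9747 were added after seeing the data. No paired analysis was possible because the titles number the libraries 1 to 12 and no number occurs in 2 groups. Depth limits Igfbp2 and Igfals, which had 0 counts in 3 libraries and 1 library.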

Other observations

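The place of Igf1 in the order of levels depends on the length it is divided by. On the authors' TPM it was the fourth of the 10 members. With CPM per kilobase of its 9904 exon bases in GENCODE M21 it stood at 0.358, the sixth, below Igfbp3 (1.02) and Igfbp5 (0.852). The ratio of counts to TPM in library 2 gives relative lengths only. It was scaled by the median, over the 10 members, of exon bases divided by that ratio. So scaled, it implies a length of 1701 bases for Igf1, and 13951 bases for Igf1r, whose exon bases number 16791. The other members apart from Igfbp3 and Igfbp5 kept their place in both orders. Insr, not a member, had 119 counts and 2.63 TPM in library 2, where Igf1r had 285 counts and 0.304 TPM. The authors' TPM thus divide Insr by a shorter length than Igf1r, and the part of the Insr transcript that was counted was not examined.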
